A study of Mus musculus with 12 samples.

Results

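The 9 genes described here encode the ID proteins (Id1, Id2, Id3 and Id4) and 5 other basic helix-loop-helix (bHLH) proteins that repress transcription or muscle differentiation (Twist1, Twist2, Msc, Bhlhe40 and Bhlhe41). They were taken from a list of gene symbols, with no limit on their values, and each had 1 row among the 46983 genes of the deposited expression table. RNA was sequenced from the C2C12 line of mouse myoblasts, which stop dividing and join into multinucleated myotubes when they differentiate. The WT cells, also called the PB-IP group, and the PPARγ/+ cells, which had received the PPARγ coding sequence in the PiggyBac vector PB-IP, were each sampled at the start (0d) and after 5 days of differentiation (5d). Each of the 4 groups had 3 libraries. The groups differed in the day and in the coding sequence, and both kinds of cells came from the same line. Whether the WT cells also received empty vector, transposase or puromycin is not stated in the paper. Effects of transfection, selection or clone thus cannot be told apart from those of the coding sequence. PPARγ/+ cells were positive clones obtained under puromycin, and how many clones entered each library is not given in the sources used here. The series text calls the cells inducible and names uninduced cells as controls, but no inducer is named. Libraries of a group are told apart by a number alone, so the p-values measure the spread between these libraries.

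A bHLH protein binds DNA as a dimer. In muscle precursors, MyoD, Myf5 and myogenin pair with ubiquitous bHLH partners called E proteins and bind E boxes, short DNA sites in the control regions of muscle genes. ID proteins have the helix-loop-helix but lack the basic region that touches DNA, so that an E protein held by an ID protein cannot bind, and they are known as inhibitors of differentiation that are plentiful in dividing myoblasts. TWIST proteins and musculin (Msc, also called MyoR) can compete with the myogenic factors for E proteins or E boxes. BHLHE40 and BHLHE41 (DEC1 and DEC2) bind E boxes as repressors and are known from the circadian clock and from the response to low oxygen.

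Part of the shared dimerisation region is shown first because that region is what makes the 4 ID genes a family. Each line gives 90 bases of the coding strand in frame, 5′ to 3′, from the GRCm38 genome, and capitals mark the bases that are identical in all 4 genes. The stretches lie within 1 coding exon each, at chr2:152736551-152736640 on the plus strand (Id1), chr12:25095780-25095869 on the minus strand (Id2), chr4:136144035-136144124 on the plus strand (Id3) and chr13:48261726-48261815 on the plus strand (Id4).
Id1: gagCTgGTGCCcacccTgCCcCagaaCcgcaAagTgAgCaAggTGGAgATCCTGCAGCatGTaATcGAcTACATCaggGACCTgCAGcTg
Id2: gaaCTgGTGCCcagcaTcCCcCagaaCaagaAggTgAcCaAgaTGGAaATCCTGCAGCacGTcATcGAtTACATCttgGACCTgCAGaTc
Id3: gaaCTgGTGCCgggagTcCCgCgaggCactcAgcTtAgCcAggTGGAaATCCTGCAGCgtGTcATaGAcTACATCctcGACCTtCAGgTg
Id4: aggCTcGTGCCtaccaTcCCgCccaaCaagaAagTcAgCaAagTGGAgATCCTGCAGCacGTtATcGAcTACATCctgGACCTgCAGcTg
The window was chosen as the one with the highest summed identity of the other genes to Id1, so its identities are high by choice. Of the 90 bases, 52 (57.8%) were identical in all 4 genes. Id3 stood furthest from the others in this window, with 67.8% of its bases shared with Id1 and with Id4 and 71.1% with Id2, whereas Id1 and Id2 shared 80.0%. The longest run of identical bases between any 2 ID transcripts was 19 bases, between Id2 and Id3.

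The same kind of window is given for the 2 pairs among the other genes, with capitals again marking bases identical within the pair. Twist1 and Twist2 each have it in 1 exon, at chr12:33958326-33958415 and chr1:91801837-91801926 on the plus strands. The windows of Bhlhe40 and Bhlhe41 span an intron and reach from base 108661538 to 108662535 of chromosome 6 (plus strand) and from base 145864228 to 145864650 of the same chromosome (minus strand).
Twist1: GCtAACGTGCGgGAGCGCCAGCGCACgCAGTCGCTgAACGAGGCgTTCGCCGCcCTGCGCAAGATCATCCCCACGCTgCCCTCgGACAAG
Twist2: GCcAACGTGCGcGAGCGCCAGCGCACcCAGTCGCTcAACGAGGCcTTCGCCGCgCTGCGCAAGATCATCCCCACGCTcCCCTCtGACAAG
Bhlhe40: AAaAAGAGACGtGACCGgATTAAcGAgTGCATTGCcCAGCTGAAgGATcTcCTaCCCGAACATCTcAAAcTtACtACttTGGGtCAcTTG
Bhlhe41: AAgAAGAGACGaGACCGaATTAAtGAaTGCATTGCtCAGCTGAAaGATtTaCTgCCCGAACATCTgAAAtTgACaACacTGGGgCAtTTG
Twist1 and Twist2 were identical at 91.1% of these bases and Bhlhe40 and Bhlhe41 at 80.0%. The longest run shared by the Twist1 and Twist2 transcripts was 23 bases. Twist1 was near 0 in all 12 libraries, in which Twist2 was measured at 0.421 FPKM or more.

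In the GENCODE M21 annotation of GRCm38 all 9 genes are protein-coding. Id1 lies at chr2:152736251-152737410 (plus strand), Id2 at chr12:25093799-25097140 (minus), Id3 at chr4:136143497-136145755 (plus) and Id4 at chr13:48261228-48266026 (plus). Twist1 lies at chr12:33957671-33959829 (plus), Twist2 at chr1:91801461-91848028 (plus) and Msc at chr1:14753346-14755992 (minus). Bhlhe40 lies at chr6:108660629-108666925 (plus) and Bhlhe41 at chr6:145858243-145865558 (minus).

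Levels are FPKM, the fragments on a gene scaled to the length of the gene in kilobases and to the depth of the library, as the authors deposited them. Between 15558026 and 22013441 fragments fell on genes in a library, and values under 3 fragments were taken as at the floor. Pparg, the overexpressed gene, lay between 3.12 and 7.56 FPKM in the 6 WT libraries and between 28.0 and 92.7 FPKM in the 6 PPARγ/+ libraries. Myoblast genes were present in each library on 0d (Myod1 5.03 to 21.5 FPKM), and muscle structure markers, summed over 18 genes, lay at 54.7 to 325 FPKM on 0d and 1462 to 7167 FPKM on 5d. The library of replicate 3 of WT_5d stood apart from its group, with a muscle marker sum of 1514 FPKM against 5230 and 7167 FPKM and a Myog level of 90.01 FPKM against 215 and 271 FPKM. Replicate 3 of PPARγ/+_5d stood apart in adipocyte markers, with Adipoq at 40.5 FPKM against 8.03 FPKM in the lowest of that group. It also stood apart in Pparg, with 92.7 FPKM against 40.1 and 44.1 FPKM in replicates 1 and 2. Of 8 macrophage and endothelial markers, which summed to 2.21 to 5.15 FPKM, Cd68 made up most (1.999 to 5.085 FPKM), Tek, Kdr and Csf1r reached at most 0.149 FPKM, and Ptprc, Adgre1, Pecam1 and Cdh5 at most 0.0346 FPKM in any library. In these bulk libraries, fewer cells of a type and less RNA per cell cannot be told apart.

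In both kinds of cells Id1, Id2, Id3, Twist2 and Msc had lower means on 5d than on 0d, and Bhlhe40 and Bhlhe41 had higher ones. Of the 9 genes, 7 passed the filter for testing (0.1 FPKM in at least 3 libraries), since Id4 and Twist1 were near 0. In WT cells Id2, Twist2 and Msc fell and Bhlhe40 rose past the limits for a call, namely an unadjusted limma p-value up to 0.05 together with a change of 2-fold or more. Of all 18023 genes tested, 7.53% were called lower and 8.94% higher in that comparison. In PPARγ/+ cells Id2 and Id3 fell and no member was called higher, against 6.06% of all genes called lower and 9.11% called higher. Bhlhe40 and Bhlhe41 had unadjusted limma p-values of 0.0406 and 7.70e-04 there with changes short of 2-fold, and limma voom on recovered fragments called the same 2 members lower and none higher. Values of 0d and 5d did not overlap for 6 of the 7 genes in WT cells and for 5 in PPARγ/+ cells, while the same held for 51.1% and 58.1% of all genes tested. On the log2 scale the 7 genes had a median change of −0.95 in WT cells and −0.60 in PPARγ/+ cells, and that of all genes was −0.081 and −0.095. All fold changes on the log2 scale are those of log2(FPKM + 0.1), which understates changes of genes with low values.

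**Figure D1:**
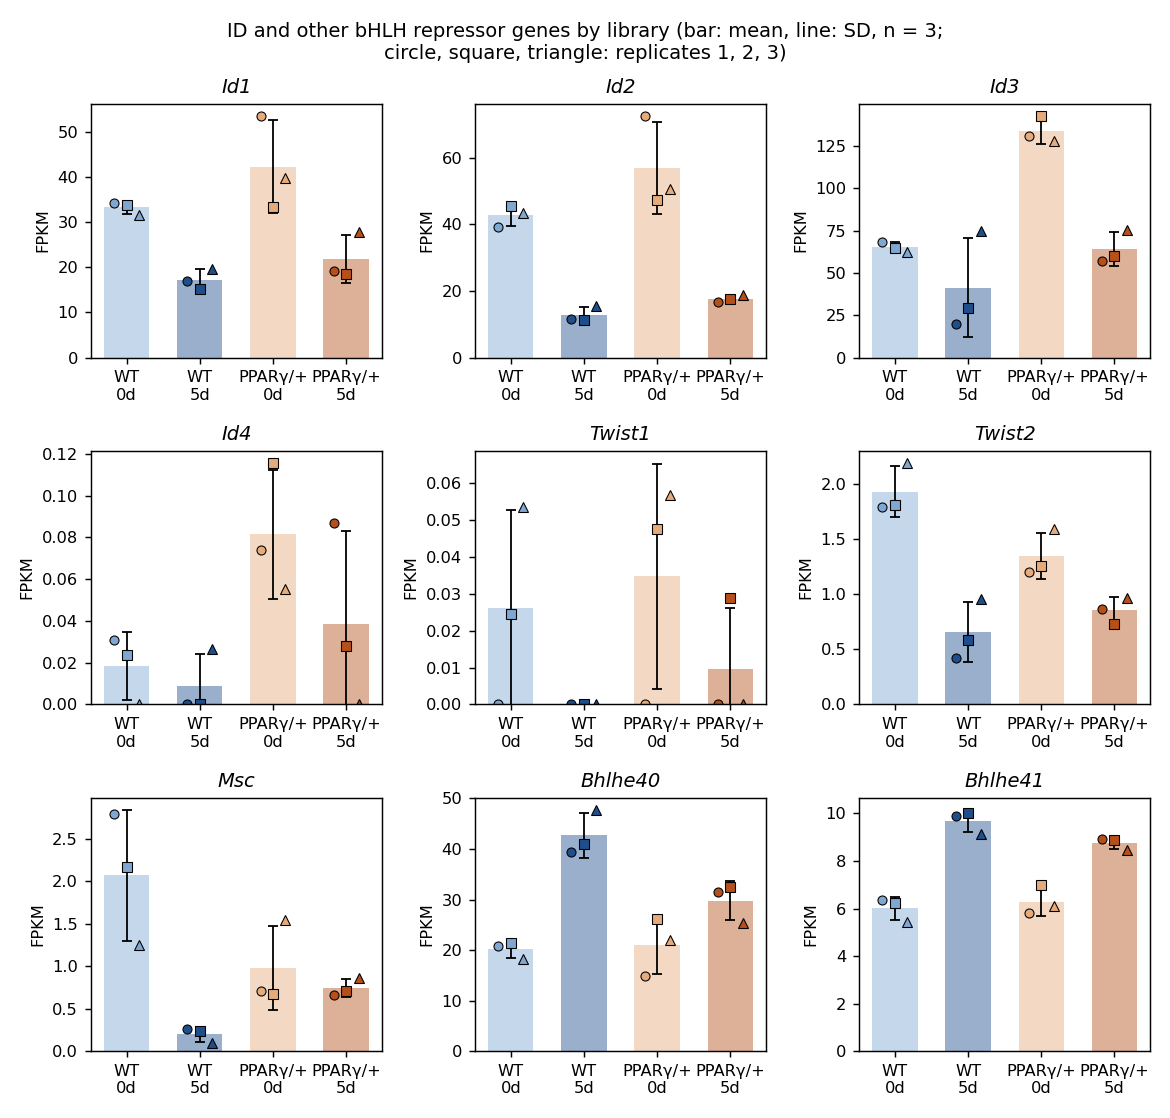
FPKM (vertical axes, from 0, each with its own scale) of the 9 genes in the 4 groups. Bars are means, lines are SD (n = 3), and circles, squares and triangles are replicates 1, 2 and 3. Id1 and Id2 were lower in every 5d library than in any 0d library of the same cells, Id3 of replicate 3 of WT_5d (74.9 FPKM) lay above all WT_0d libraries, Msc in WT_5d did not exceed 0.262 FPKM, and Bhlhe40 and Bhlhe41 were higher in WT_5d than in WT_0d.

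Id3 was the most abundant of the ID genes, and the 1 member called different between the kinds of cells before differentiation. In WT_0d cells Id3 was measured at 68.3, 65.0 and 62.4 FPKM. In PPARγ/+_0d cells it was measured at 131, 143 and 128 FPKM. The groups did not overlap, and the mean was 2.05-fold higher in PPARγ/+ cells (133.8 ± 7.85 against 65.2 ± 2.95 FPKM, SD, n = 3). On the log2 scale the difference was 1.04 ± 0.07 (SE), with an adjusted limma p-value of 0.00497 in a fit of these 6 libraries. Id3 was 1 of the 0.361% of genes called higher in PPARγ/+ cells on 0d (limits of 0.05 for the adjusted p-value and 2 for the fold change), and none of the members was among the 1.23% called lower (Twist2 and Msc had lower means with unadjusted limma p-values of 0.0211 and 0.0434, and voom called neither). The fold change lay just above the limit of 2, and it fell just below it, at 0.996 on the log2 scale, when the libraries were scaled by the median ratio, and at 0.988 without replicate 2 of PPARγ/+_0d. The adjusted p-value was 0.118 when all 12 libraries were fitted together and 0.0953 with the replicate number as a block.

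On 5d Id3 was measured at 57.0, 60.2 and 75.6 FPKM in PPARγ/+ cells. The drop from 0d was past the limits for a call, with a log2 change of −1.07 ± 0.11 (SE, adjusted limma p-value 4.18e-04) and no overlap. It was −0.94 with median-ratio scaling, −0.95 with quantile normalization and −0.985 without replicate 1 of PPARγ/+_5d, short of a 2-fold change in each. In WT_5d cells Id3 was measured at 19.9, 29.2 and 74.9 FPKM. Replicates 1 and 2 lay below all WT_0d libraries and replicate 3 above them, so the groups overlapped, and the log2 change of −0.89 ± 0.45 (SE) had an adjusted limma p-value of 0.173. Without replicate 3 of WT_5d the change was −1.43, with an adjusted limma p-value of 0.0034, and Id3 was called. This library is the one with the low muscle marker sum (1514 FPKM), and its Id3 level lay close to that of replicate 3 of PPARγ/+_5d, whose muscle marker sum was 1734 FPKM. Replicates 1 and 2 of PPARγ/+_5d, with sums of 1462 and 1664 FPKM, had lower Id3 levels (57.0 and 60.2 FPKM). Whether the lower muscle content of replicate 3 of WT_5d has a part in its Id3 level was not tested. Between the cells on 5d Id3 differed by 0.85 ± 0.48 on the log2 scale (adjusted limma p-value 0.492), and by 1.40 (adjusted p-value 0.0267) without that library.

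Id2, which inhibits E proteins and is known to bind the retinoblastoma protein, fell the most of the ID genes. In WT_0d cells it was measured at 39.2, 45.4 and 43.3 FPKM, and in WT_5d cells at 11.4, 11.3 and 15.4 FPKM. In PPARγ/+ cells the levels were 72.5, 47.4 and 50.6 FPKM on 0d and 16.7, 17.7 and 18.7 FPKM on 5d. No library of 5d came near any of 0d in either kind of cells. The mean on 0d was 3.36-fold that on 5d in WT cells (log2 change −1.75 ± 0.14, SE, adjusted limma p-value 4.02e-04) and 3.21-fold in PPARγ/+ cells (−1.65 ± 0.16, adjusted limma p-value 2.85e-04). These calls were kept with every alternative run. The PPARγ/+ libraries lay above the WT libraries without overlap on both days, by 0.39 ± 0.17 on 0d (adjusted limma p-value 0.247) and 0.49 ± 0.13 on 5d (adjusted limma p-value 0.240) on the log2 scale, and neither difference passed the test.

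Id1, an inhibitor best known as a target of bone morphogenetic protein (BMP) signalling, showed a smaller difference between the days. It was measured at 34.3, 33.9 and 31.7 FPKM in WT_0d cells and at 16.96, 15.2 and 19.8 FPKM in WT_5d cells. In PPARγ/+ cells it was measured at 53.7, 33.4 and 39.9 FPKM on 0d and at 19.2, 18.5 and 27.9 FPKM on 5d. Both pairs of groups were apart, yet the log2 changes of −0.95 ± 0.11 (SE) in WT cells and −0.95 ± 0.22 in PPARγ/+ cells were short of a 2-fold change, so that Id1 was not called although the adjusted limma p-values were 0.00132 and 0.0108. The difference of the changes was 0.00031 ± 0.26, with a 95% confidence interval from −0.57 to 0.57 (adjusted limma p-value 0.999). Between the cells Id1 differed by 0.32 on the log2 scale on 0d and on 5d (adjusted limma p-values 0.332 and 0.505), with overlap on both days.

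Id4 gave 0 or 1 fragments in each WT library, 2 to 5 fragments in PPARγ/+_0d and 0 to 3 fragments in PPARγ/+_5d, at most 0.116 FPKM. With WT cells below the floor of 3 fragments and PPARγ/+_0d at it, no fold is given. The order of the ID genes by their mean FPKM in WT_0d cells was Id3 (65.2 ± 2.95), Id2 (42.6 ± 3.18), Id1 (33.3 ± 1.42) and Id4 (0.0183 ± 0.0163, SD, n = 3), with no overlap between neighbours. In WT_5d cells it was Id3 (41.4 ± 29.4), Id1 (17.3 ± 2.30) and Id2 (12.7 ± 2.33), where Id1 and Id2 overlapped at single libraries (lowest Id1 15.2 FPKM, highest Id2 15.4 FPKM). In PPARγ/+_0d cells Id2 (56.8 ± 13.7) and Id1 (42.3 ± 10.3) overlapped, and so they did in PPARγ/+_5d cells (17.7 ± 1.01 and 21.9 ± 5.23 FPKM), where Id3 was at 64.25 ± 9.94 FPKM.

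Summed over Id1 to Id4, ID RNA was 141 ± 3.59 FPKM in WT_0d, 71.4 ± 33.8 in WT_5d, 233 ± 20.9 in PPARγ/+_0d and 103.9 ± 15.98 in PPARγ/+_5d (SD, n = 3). Id3 made up 46.2% of that sum in WT_0d, 53.9% in WT_5d, 57.8% in PPARγ/+_0d and 61.9% in PPARγ/+_5d as means over the libraries. The E proteins are the partners that ID proteins bind. Tcf3, which encodes the E proteins E12 and E47, was at 37.2 ± 1.87 FPKM in WT_0d and 20.6 ± 1.37 in WT_5d (log2 change −0.85 ± 0.08, SE, adjusted limma p-value 6.98e-04) and at 29.2 ± 1.27 and 21.3 ± 1.29 FPKM in PPARγ/+ cells (−0.45 ± 0.06, adjusted limma p-value 0.00133), with no overlap in either and no 2-fold change. Tcf3 on 0d was also lower in PPARγ/+ cells, by −0.35 on the log2 scale with an adjusted limma p-value of 0.0388. The other E protein genes Tcf12 and Tcf4 lay between 8.03 and 10.9 FPKM and between 3.99 and 7.07 FPKM over the 12 libraries. None of the 3 E protein genes was called by limma in any comparison, and Tcf4 had an unadjusted p-value of 0.0288 between the days in WT cells.

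Set against the sum of the 3 E protein genes, ID RNA per length amounted to 2.67, 2.86 and 2.70 times that sum in the WT_0d libraries. In PPARγ/+_0d cells the ratios were 6.41, 4.92 and 4.85, all above WT_0d. In WT_5d cells they were 1.385, 1.54 and 2.80, where replicate 3 lay within the range of WT_0d and the other libraries below it. In PPARγ/+_5d cells they were 2.54, 2.68 and 3.37, below all PPARγ/+_0d libraries, and 1 each below, within and above the range of WT_0d. The mean ratios were 2.745 ± 0.0968 in WT_0d, 1.91 ± 0.775 in WT_5d, 5.39 ± 0.881 in PPARγ/+_0d and 2.86 ± 0.443 in PPARγ/+_5d (SD, n = 3). These are ratios of RNA and not of protein, and they were not tested. Their size depends on the length divisor, as annotated exons span 27382 bases for Tcf4 and 15529 for Tcf12, against 1160 for Id1 and 1791 for Id3. From fragments, not per length, the mean ratios were 0.494 in WT_0d, 0.265 in WT_5d, 0.919 in PPARγ/+_0d and 0.4275 in PPARγ/+_5d. The values per length thus do not show that ID transcripts outnumbered E protein transcripts.

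**Figure D2:**
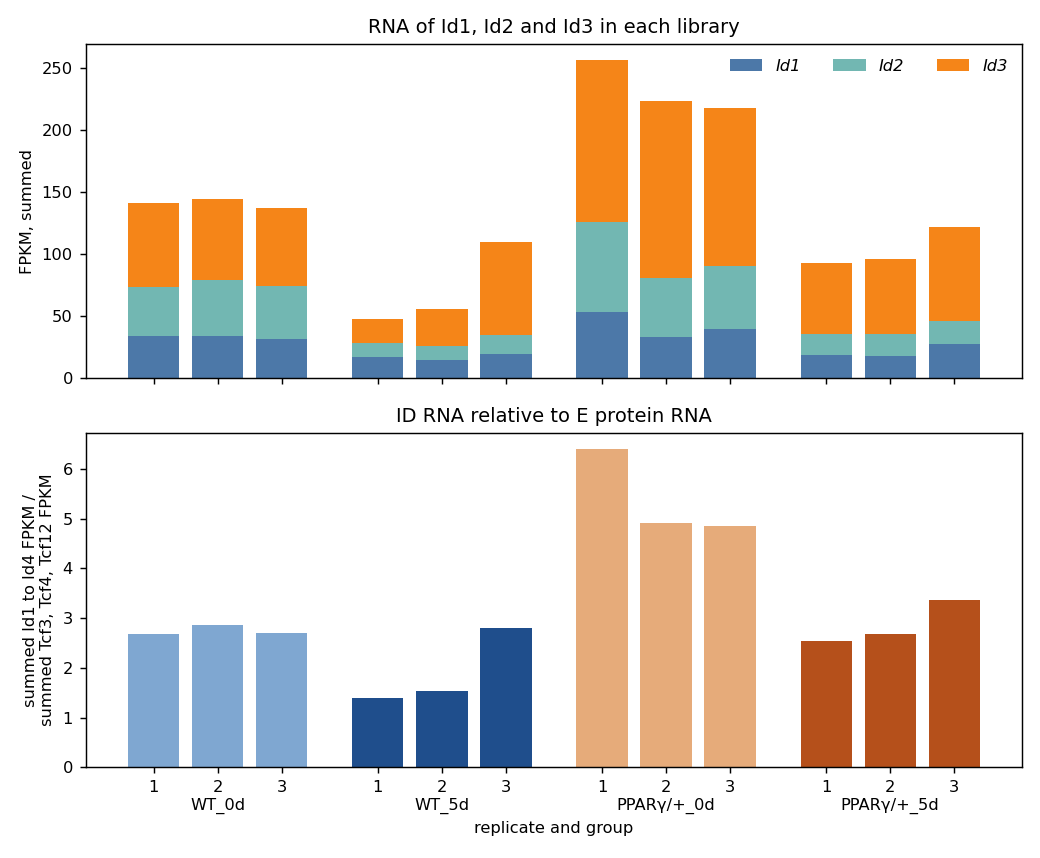
Upper panel: summed FPKM of Id1, Id2 and Id3 (stacked) in each of the 12 libraries. Lower panel: summed FPKM of Id1 to Id4 divided by the summed FPKM of Tcf3, Tcf4 and Tcf12 in the same libraries. PPARγ/+_0d libraries stand highest in both panels (ratios 4.85 to 6.41), and replicate 3 of WT_5d (2.80) stands above the others of its group.

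Msc and Twist2, the competitors of the myogenic factors, were measured at far lower levels. Msc was at 2.79, 2.16 and 1.26 FPKM in WT_0d cells (138, 139 and 74 fragments) and at 0.262, 0.244 and 0.104 FPKM in WT_5d cells (17, 12 and 6 fragments). The mean on 0d was 10.2-fold that on 5d, without overlap, and the log2 change was −2.82 ± 0.37 (SE, adjusted limma p-value 0.00214). This was the largest change in either direction among the 7 tested members in WT cells, and the call was kept with every alternative run, with log2 values from −3.31 to −1.32. In PPARγ/+ cells Msc was at 0.708, 0.678 and 1.55 FPKM on 0d and at 0.663, 0.712 and 0.867 FPKM on 5d. These groups overlapped, and the log2 change of −0.26 ± 0.31 had an adjusted limma p-value of 0.524, with the sign turning to 0.09 without replicate 3 of PPARγ/+_0d.

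The change of Msc over the 5 days differed between the kinds of cells by 2.55 ± 0.50 on the log2 scale (SE, 95% confidence interval 1.45 to 3.66, adjusted limma p-value 0.0498 over 12 libraries). Msc was 1 of the 0.583% of genes whose change was higher in PPARγ/+ cells (adjusted p-value up to 0.05), and no member was among the 0.178% with a lower change, nor did any have a lower change at an unadjusted limma p-value of 0.05 or less. The p-value lay just under the limit, and the adjusted p-values of the alternatives ranged from 0.0102 to 0.143. On 0d PPARγ/+ cells had a lower Msc mean (0.978 ± 0.493 against 2.07 ± 0.774 FPKM, SD, n = 3) with overlap and an adjusted limma p-value of 0.214. On 5d they had a higher one (0.747 ± 0.106 against 0.203 ± 0.0869 FPKM), without overlap, and the log2 difference of 1.52 ± 0.28 (SE) had an adjusted limma p-value of 0.122. In that comparison only 0.0943% of all genes were called higher and 0.061% lower, and none of the 7 members was called by limma on FPKM or by limma voom on recovered fragments. With 0.05 as the limit for the unadjusted p-value and none for the fold, 3 members (Msc, Bhlhe40 and Id2) passed, as did 12.7% of all genes. Without replicate 3 of WT_5d the Msc difference was 1.26 with an adjusted p-value of 0.0246. The antisense gene Gm9947 shares 539 exonic bases with Msc, and the library kit does not mark the strand, so reads there cannot be assigned to one of the pair.

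Twist2 was at 1.79, 1.81 and 2.19 FPKM in WT_0d cells and at 0.421, 0.588 and 0.954 FPKM in WT_5d cells. It fell by 1.48 on the log2 scale (SE 0.28, adjusted limma p-value 0.00823), and with a pseudocount of 1 in place of 0.1 the change was −0.83 and the call was lost. In PPARγ/+ cells it was at 1.20, 1.26 and 1.59 FPKM on 0d and at 0.866, 0.733 and 0.967 FPKM on 5d, a log2 change of −0.60 ± 0.17 (adjusted limma p-value 0.0243) that was short of a 2-fold change. The groups were apart in both kinds of cells. PPARγ/+_0d libraries all lay below WT_0d libraries (log2 difference −0.49 ± 0.16, adjusted limma p-value 0.152), and on 5d the groups overlapped. The difference of the changes, 0.89 ± 0.33, had an adjusted limma p-value of 0.310. The antisense gene Gm29100 shares 1477 exonic bases with Twist2, with the same limit as for Msc. Twist1 gave at most 2 fragments in any library and 0 in all 3 WT_5d libraries, so it was at or under the floor throughout.

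**Figure D3:**
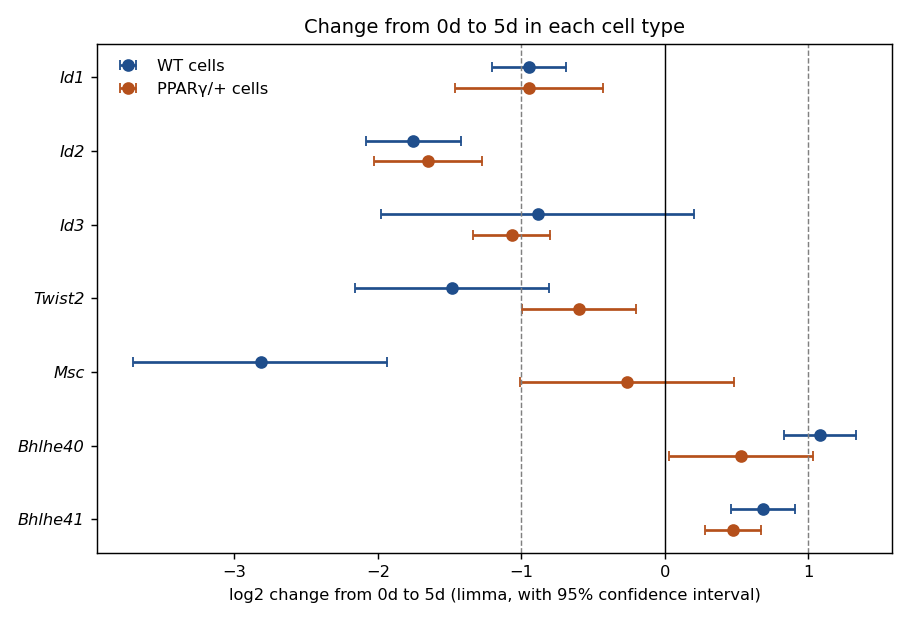
Log2 change from 0d to 5d of the 7 genes tested, in WT cells (blue) and PPARγ/+ cells (orange), with limma 95% confidence intervals. Dashed lines mark a 2-fold change. The intervals of Id1, Id2 and Id3 overlap widely between the cells, while that of Msc in WT cells (−3.70 to −1.93) lies below that in PPARγ/+ cells (−1.01 to 0.48).

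Bhlhe40 and Bhlhe41 went the other way. Bhlhe40, the repressor DEC1, was at 20.9, 21.35 and 18.2 FPKM in WT_0d cells and at 39.4, 41.0 and 47.8 FPKM in WT_5d cells. The rise was 2.12-fold without overlap (log2 change 1.08 ± 0.11, SE, adjusted limma p-value 8.01e-04), and it was 0.997, just under a 2-fold change, without replicate 3 of WT_5d. In PPARγ/+ cells Bhlhe40 was at 14.9, 26.25 and 21.9 FPKM on 0d and at 31.6, 32.5 and 25.3 FPKM on 5d. These groups overlapped, with a log2 change of 0.53 ± 0.21 and an adjusted limma p-value of 0.0776. On 5d all PPARγ/+ libraries lay below all WT libraries (log2 difference −0.52 ± 0.12, adjusted limma p-value 0.197), and the difference of the changes, −0.55 ± 0.25, had an adjusted limma p-value of 0.419.

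Bhlhe41, the repressor DEC2, was at 6.34, 6.22 and 5.46 FPKM in WT_0d cells and at 9.89, 10.03 and 9.15 FPKM in WT_5d cells. In PPARγ/+ cells it was at 5.83, 6.97 and 6.09 FPKM on 0d and at 8.92, 8.87 and 8.48 FPKM on 5d. All libraries of 5d lay above all libraries of 0d. The log2 changes were 0.68 ± 0.09 (SE, adjusted limma p-value 0.00247) in WT cells and 0.47 ± 0.08 (adjusted limma p-value 0.00324) in PPARγ/+ cells, both short of a 2-fold change and not called. The cells did not differ past the test on 0d (0.07 ± 0.10) or on 5d (−0.14 ± 0.06, adjusted limma p-value 0.412). Bhlhe41 shares 1280 exonic bases with Gm43909 on the other strand. The libraries of the 2 kinds of cells did not overlap for 3 of the 7 members on 0d (Id2, Id3 and Twist2) and 4 on 5d (Id2, Msc, Bhlhe40 and Bhlhe41), beside 26.8% and 18.5% of all genes tested.

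BHLHE proteins and the clock factors bind the E box CACGTG, and myogenic factors bind sites of the form CANNTG. RefSeq promoters of 300 bases were at hand for 6 of the 9 genes (Id2, Id3, Id4, Twist1, Twist2 and Bhlhe41). Both motifs read the same on either strand, and each CACGTG is also a CANNTG. The first motif was found in 7.2% of 32851 mouse promoters and the other in 72.3%. Among the 6 members, Bhlhe41 had 1 CACGTG and 4 CANNTG, Id2 had 1 CANNTG, and the others had neither in this window. The stretch of the Bhlhe41 promoter with the CACGTG match, in capitals, lies at chr6:145865560-145865609 on the minus strand of GRCm38.p6 and starts 189 bases before the RefSeq start (the match 153 bases before it), and it is shown as the 1 such match among the members.
Bhlhe41: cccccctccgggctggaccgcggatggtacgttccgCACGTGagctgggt
A match is a run of letters and does not show that a factor binds there.

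The myogenic bHLH factors, which compete with ID proteins for E proteins, were measured in the same libraries. Myog rose from 6.62 ± 7.89 to 192 ± 92.7 FPKM in WT cells (log2 change 5.40 ± 0.88, SE, adjusted limma p-value 0.00473) and from 1.65 ± 1.38 to 85.0 ± 5.80 FPKM in PPARγ/+ cells (5.90 ± 0.51, adjusted limma p-value 2.0e-04). Myod1 was also called higher in both, by 1.31 ± 0.47 in WT cells (adjusted limma p-value 0.0708) and 1.60 ± 0.22 in PPARγ/+ cells (adjusted limma p-value 0.00127). Myf5 fell by 1.46 on the log2 scale in WT cells (adjusted limma p-value 0.00268), and in PPARγ/+ cells it was 0.74 higher on 5d (adjusted limma p-value 0.00791), short of a 2-fold change. On 0d Myf5 was 3.04-fold lower in PPARγ/+ cells (3.96 ± 0.297 against 12.02 ± 0.988 FPKM, adjusted limma p-value 0.00486), and the difference of its changes was 2.20 ± 0.27 (adjusted limma p-value 0.00844). Msc and Myf5 were thus the genes among the bHLH members and myogenic factors whose changes differed between the cells past the test. Msc passed only just (adjusted limma p-value 0.0498), and its call was kept in 5 of 21 alternatives. Myf6 was at most 0.315 FPKM in any library.

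The plot of the 5d libraries against muscle marker RNA shows how the repressors stood beside the extent of muscle gene expression. Replicates 1 and 2 of WT_5d, with the highest muscle marker sums (7167 and 5230 FPKM), had the lowest Id3 (19.9 and 29.2 FPKM), Id2 (11.4 and 11.3 FPKM) and Twist2 (0.421 and 0.588 FPKM) of the 6 libraries. Replicate 3 of WT_5d, with 1514 FPKM, lay within the PPARγ/+_5d range for Id1, Id3 and Twist2, and below it for Id2 (15.4 FPKM against 16.7 to 18.7 FPKM). For Msc the same library had the lowest level of the 6 (0.104 FPKM, 6 fragments), and for Bhlhe40 the highest (47.8 FPKM, against 25.3 to 32.5 FPKM in PPARγ/+_5d). Its Bhlhe41 level (9.15 FPKM) lay between those of the PPARγ/+_5d libraries and those of the other WT_5d libraries. Within PPARγ/+_5d the order was the reverse for Id3 and Id2. Replicates 1, 2 and 3 had marker sums of 1462, 1664 and 1734 FPKM. Their levels were 57.0, 60.2 and 75.6 FPKM for Id3 and 16.7, 17.7 and 18.7 FPKM for Id2, while Twist2 followed no such order (0.866, 0.733 and 0.967 FPKM). Pparg had the same order as the marker sums in these replicates (40.1, 44.1 and 92.7 FPKM). The part of muscle content or of Pparg in the levels of the repressors was not tested.

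**Figure D4:**
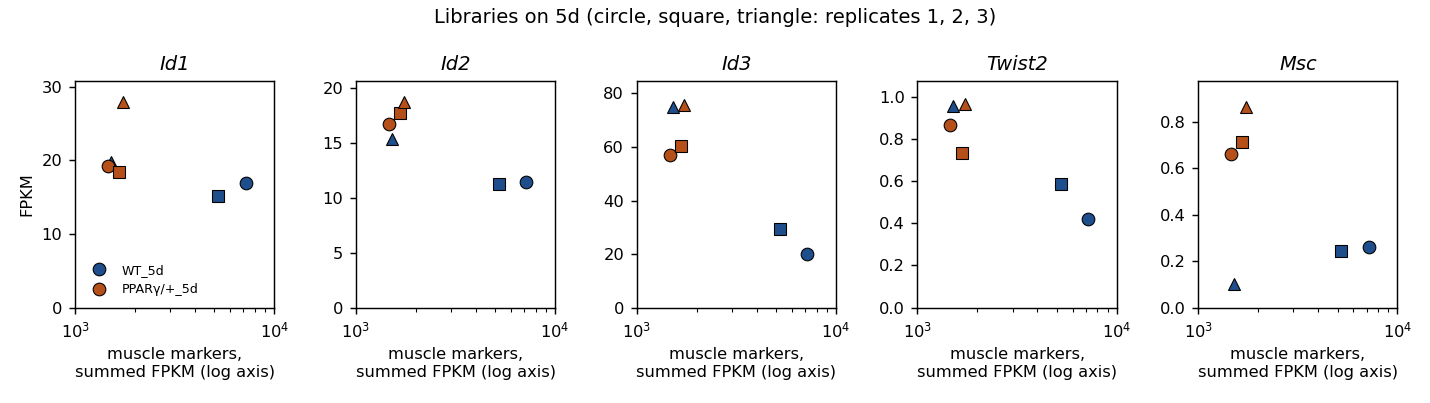
FPKM of 5 members (vertical axes, from 0) against the summed FPKM of 18 muscle structure markers (horizontal axis, log scale) in the 6 libraries of 5d, blue for WT_5d and orange for PPARγ/+_5d, with circles, squares and triangles for replicates 1, 2 and 3. Replicate 3 of WT_5d (1514 FPKM of marker RNA) lies beside the PPARγ/+_5d libraries for Id3 (74.9 FPKM) and Twist2, and at the bottom for Msc (0.104 FPKM).

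BMP signalling through SMAD proteins is a known inducer of the ID genes, and inhibitory SMADs are induced by the same signal. Of 28 tested genes of BMP ligands, receptors, SMADs and antagonists, 5 rose and none fell in WT cells. In PPARγ/+ cells 5 rose and 1 fell. Among all genes 8.94% rose and 7.53% fell in WT cells, and 9.11% and 6.06% in PPARγ/+ cells. The 28 genes had a median change of 0.25 over the days in WT cells and 0.03 in the others, beside −0.08 and −0.10 for all genes. The genes that rose were secreted antagonists (Chrdl1, Chrd and Fst in both kinds of cells) and ligands of the BMP family (Gdf5 and Gdf6 in WT cells, Bmp6 and Gdf6 in PPARγ/+ cells), the ligands being named after their values were seen. They had 0 to 7 fragments in a library on 0d and stayed low on 5d, with Gdf5 at 0.282 ± 0.101 and Gdf6 at 0.472 ± 0.0734 FPKM in WT cells and Bmp6 at 0.172 ± 0.0305 and Gdf6 at 0.162 ± 0.0316 FPKM in PPARγ/+ cells. Chrdl1 rose from 2.99 ± 1.53 to 25.7 ± 4.92 FPKM in WT cells and from 7.81 ± 1.53 to 31.35 ± 4.14 FPKM in PPARγ/+ cells, with log2 changes of 3.15 ± 0.33 and 1.999 ± 0.155. Chrd rose by 2.22 ± 0.21 and 1.53 ± 0.13 on the log2 scale, and Fst by 2.72 ± 0.32 in WT cells, each with an adjusted limma p-value of at most 0.00145. The gene that fell in PPARγ/+ cells was Smad7, an inhibitory SMAD (12.05 ± 1.43 to 4.54 ± 0.654 FPKM, log2 change −1.39 ± 0.13, adjusted limma p-value 2.89e-04).

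Between the cells on 0d, 2 genes of this list were called higher in PPARγ/+ cells and none lower (all genes 0.361% and 1.23%). One of them, Smad6, the inhibitory SMAD of the BMP branch, was at 7.59 ± 0.786 FPKM in PPARγ/+_0d and 3.27 ± 0.144 FPKM in WT_0d (log2 difference 1.19 ± 0.10, SE, adjusted limma p-value 0.009). On 5d and in the difference of the changes, 0 of the 28 genes passed the limma test after adjustment. Among all 18023 genes tested, only 34 and 137 passed it. Unadjusted limma p-values up to 0.05 were found for 6 and 12 of the 28 genes. The same held for 2281 and 2164 of all genes tested. Comparisons that share a group (WT_0d enters the change in WT cells and the difference on 0d) are not independent of each other.

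The genes whose pattern over the 12 libraries was most like that of a member were sought among 11681 genes with a mean of at least 1 FPKM, by Pearson's r of the log2 values. The points share their group and library, so r is a description. Id2 was closest to Atp8b2 (r = 0.995) and Exosc1 (0.989). Id3 was closest to Rasl11a (0.977) and Rgs10 (0.964), and Twist2 to Ccdc120 (0.982) and Cyp4f16 (0.97). Bhlhe40 was closest to Gadd45a (0.964), a growth arrest gene, and Rab11fip5 (0.955). Among the 2 genes nearest Bhlhe41 was Trim63 (0.984), a muscle ubiquitin ligase. Msc had a mean under 1 FPKM and was not searched.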

How the data were processed

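RNA of C2C12 cells was measured in 12 libraries (4 groups of 3). The authors removed adapters from paired-end reads (Trim Galore), mapped the reads with STAR, counted them over Ensembl genes (HTSeq) and derived FPKM. Their methods name GRCm38, while the submitters' processing notes list mm9, and the exonic lengths of the GRCm38 annotation used here (GENCODE M21) gave whole fragments for 21058 of 27138 expressed genes within 0.001 fragments. The deposited FPKM were used. The authors also deposited log2(FPKM + 1) of the same values, which differed from it by at most 5.3e-14 and was not analysed further. No per-library column was left out (0 unused), and any 2 libraries differed at 21594 genes or more. Fragments were recovered from FPKM, length and an inferred library total, and length was inferred for the other 6080 genes. They served for depth, for the floor of 3 fragments (counting error only) and for 1 alternative.

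log2(FPKM + 0.1) of 18023 genes with at least 0.1 FPKM in at least 3 libraries were fitted with limma 3.58.1 (lmFit and eBayes with a trend, R 4.3.3), each pairwise comparison on its own 6 libraries and the interaction of cell type and day on all 12. Comparisons of days used the study's limits (unadjusted p-value at most 0.05, fold change at least 2). Comparisons of cells used the same fold change with 0.05 as the limit after Benjamini-Hochberg adjustment, which was also the limit for the interaction. Adjusted p-values are over all genes tested. The fits were tested on simulated data. The 9 members and the gene lists were chosen with earlier results of these data known. The text names all members, Pparg, the E protein and myogenic genes, from each other list at most 3 called genes with the largest changes (and 1 FPKM or more in the group where they are higher), and the 2 genes nearest each member, except for some genes that are not reported here. Promoters came from RefSeq (GRCm38.p6), and coding windows from the GENCODE M21 coding sequences. Python 3.11.15 served for all other steps, with pandas 2.3.3 and numpy 2.4.6 for tables and matplotlib 3.10.9 for plots. Alternatives changed the pseudocount, filter, scaling, weights, block, libraries, test or threshold, 1 at a time.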

Additional observations from a re-analysis of the deposited data

Results flagged for a closer look

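The change of Msc from 0d to 5d differed between the kinds of cells, by 2.554 on the log2 scale (PPARγ/+ minus WT), which the interaction term of limma put past the test at an adjusted p-value of 0.0498. Msc was lower in all WT_5d libraries than in any WT_0d library (at most 0.262 FPKM, against at least 1.26 FPKM in WT_0d), and its PPARγ/+ groups overlapped. Msc levels in WT_5d rest on 6 to 17 fragments per library. The call was kept in 5 of the 21 alternatives run, and the direction in all 21, with log2 values from 1.17 to 3.05.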

How the results depend on the processing

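Of 623 recomputed values of single members, 565 kept their direction and their side of the limits, 25 lost the call, 13 gained one and 20 changed sign. Members called in WT cells (4) ranged from 3 to 6, and all other counts of members were as follows. In PPARγ/+ cells 2 members became 1 with median-ratio scaling and with quantile normalization (Id3 was lost), and 1 to 3 without single libraries. On 0d 1 member became 0 with median-ratio scaling, with the replicate block and with all 12 libraries in 1 fit, 2 with an unadjusted p-value, and 0 to 1 without single libraries. On 5d 0 became 1 with array weights and with an unadjusted p-value, and 0 to 2 without single libraries (2 without replicate 3 of WT_5d). In the interaction 1 became 0 with a pseudocount of 1 or 0.01, without a filter, with a filter at 1 FPKM, with median-ratio scaling, with the replicate block and with voom on recovered fragments, 2 with array weights, and 0 to 2 without single libraries. The causes were not tested. The replicate numbers did not pair the libraries (correlations of same-numbered deviations −0.068 to 0.083, and not every library was most like its own number), and the replicate block changed no other count of members.

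Signs turned for Bhlhe40 on 0d (−0.011 with median-ratio scaling, −0.150 to 0.255 without single libraries), for the interaction of Id1 (−0.006 with a pseudocount of 1, −0.010 with quantile normalization, −0.003 with voom, −0.187 to 0.185 without single libraries) and of Id3 (0.054 with array weights, −0.590 to 0.363), and without single libraries for the interaction of Id2 (−0.019 to 0.288), for Bhlhe41 on 0d (−0.008 to 0.119), Msc in PPARγ/+ cells (−0.453 to 0.088) and Tcf3 on 5d (−0.010 to 0.083). None of these was called. From fragments, not per length, the ratios of ID to E protein RNA were 0.494, 0.265, 0.919 and 0.4275 in WT_0d, WT_5d, PPARγ/+_0d and PPARγ/+_5d, in the same order of groups except that WT_0d lay above PPARγ/+_5d.

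All genes called: WT cells 2970 (1441 with a pseudocount of 1), PPARγ/+ cells 2735 (1241 with a pseudocount of 1, 1806 with a filter at 1 FPKM), 0d 287 (115 with a pseudocount of 1, 107 without a filter, 0 with the block, 493 with voom, 661 with an unadjusted p-value, 55 to 137 without single libraries), 5d 28 (8 with a pseudocount of 1, 71 with 0.01, 502 with array weights, 0 with the block, 199 with all 12 libraries, 606 with an unadjusted p-value, 1 to 723 without single libraries) and the interaction 137 (2070 with array weights, 61 with the block, 42 to 527 without single libraries). With median-ratio scaling, the median of all genes over the days went from −0.081 to 0.023 in WT cells and from −0.095 to 0.021 in PPARγ/+ cells. Depth limits Msc, Twist2, Id4 and Twist1 most.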

Other observations

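Of 21 other bHLH genes tested between the days, 1 rose and 1 fell in WT cells, where 8.94% and 7.53% of all genes did, and 2 rose and 2 fell in PPARγ/+ cells, where 9.11% and 6.06% of all genes did. Hes6, a HES family gene known to promote muscle differentiation, rose from 11.9 ± 1.11 to 48.9 ± 14.9 FPKM in WT cells (log2 change 1.985 ± 0.24, SE, adjusted limma p-value 0.00162) and from 7.93 ± 1.13 to 18.3 ± 1.31 FPKM in PPARγ/+ cells (1.20 ± 0.11, adjusted limma p-value 2.37e-04). Mxd3, a MAX partner found in dividing cells, fell by 3.32 and 3.19 on the log2 scale (adjusted limma p-values 2.32e-04 and 1.63e-05). The 12 proliferation markers all fell in both kinds of cells, from a sum of 321 to 498 FPKM on 0d to 48.8 to 64.45 FPKM on 5d. Hey1 fell in PPARγ/+ cells from 2.41 ± 0.987 to 0.660 ± 0.169 FPKM. Hes1, a Notch target and repressor, was lower in PPARγ/+ cells on 0d (5.59 ± 0.619 against 11.7 ± 1.38 FPKM, SD, n = 3). The log2 difference was −1.055 ± 0.117 (adjusted limma p-value 0.0161). Hes1 was 1 of 2 genes of this list called lower there, beside 1.23% of all genes.

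Bhlhe40 and Bhlhe41 are known from the clock and from low oxygen, and both settings were looked at by list. Among all genes 8.94% rose and 7.53% fell in WT cells, and 9.11% and 6.06% in PPARγ/+ cells, with median changes of −0.081 and −0.095. Of 17 clock genes, 2 rose and none fell in WT cells, and 1 rose and 1 fell in PPARγ/+ cells. Their median changes were 0.27 and 0.07. Ciart fell by 1.32 in PPARγ/+ cells. Of 14 hypoxia-responsive genes, 3 rose in WT cells (Adm, Car9 and P4ha1) and 1 in PPARγ/+ cells (Car9), and none fell. The median changes of the 14 genes were 0.583 and 0.285. Car9, a carbonic anhydrase, rose from 1.51 ± 0.0413 to 5.68 ± 2.065 FPKM in WT cells and from 1.24 ± 0.24 to 3.84 ± 0.724 FPKM in PPARγ/+ cells. No oxygen level or time of day is given in the sources used here.

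Markers of other cell types moved with the day in the same libraries. Fibroblast and tendon markers rose for 6 of 9 tested genes in WT cells and 8 of 9 in PPARγ/+ cells, beside 8.94% and 9.11% of all genes. Their sums were 314 to 529 FPKM on 0d and 1095 to 1749 FPKM on 5d. Adipocyte markers summed to 11.9 to 19.7 FPKM in WT libraries, 20.7 to 27.1 FPKM in PPARγ/+_0d and 62.0 to 165 FPKM in PPARγ/+_5d, with Lep at 0 in all 12. Their part in the levels of the ID genes was not tested. The 7 osteoblast markers summed to 341 to 1320 FPKM, of which Spp1, which other cells also express, made up most (333 to 1313 FPKM). Of the 7 genes 3 were tested, and 1 of these (Spp1) rose in PPARγ/+ cells and was lower in them on 0d. Runx2 was at 4.885 to 8.472 FPKM, and Sp7, Alpl and Bglap reached at most 0.254 FPKM in any library. Ibsp was at 0 in all 12 libraries and Dlx5 at most 0.01695 FPKM.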
